A study of Homo sapiens with 30 samples.

Results

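The nuclear genome encodes most subunits of the 5 complexes of oxidative phosphorylation, and these genes were followed here together with C15orf48, which encodes a paralogue of the complex IV subunit NDUFA4, in 3 human colorectal cancer cell lines. Members were taken by symbol, as every gene named NDUFA, NDUFB, NDUFC, NDUFS or NDUFV with a number, SDHA to SDHD, and every symbol starting with UQCR, COX4 to COX8 or ATP5, plus C15orf48. The rule found 94 of 24462 genes. Of these, 74 are subunits (36 of complex I, 4 of complex II, 8 of complex III, 11 of complex IV and 15 of complex V), 8 are tissue-specific or inducible isoforms of complex IV subunits, and 12 are antisense RNAs, read-through genes, pseudogene-like copies or relatives that only share the name. CYC1, the cytochrome c1 subunit of complex III, falls outside the rule because of its symbol, and the subunits encoded by the mitochondrial genome were not analysed here.

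Complexes I and II pass electrons from NADH and succinate to ubiquinone, complex III passes them on to cytochrome c, and complex IV passes them to oxygen; complexes I, III and IV pump protons, and complex V uses the returning protons to make ATP. Enterocytes, the absorptive cells that line the gut, are rich in mitochondria and draw much of their ATP from this pathway. C15orf48 is known as an inducible protein that can take the place of NDUFA4 in complex IV, and its transcript also carries the microRNA miR-147b, whose known targets include NDUFA4.

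RNA was counted by sequencing from the 3′ ends of transcripts in 30 libraries, 3 for each of 10 groups. In Caco2, a line that can take on enterocyte features in culture, the groups were cells with a hairpin against SETDB1 (a histone H3 lysine 9 methyltransferase) sorted as KRT20-positive, the same hairpin cells sorted as KRT20-negative, cells with a scramble hairpin in differentiation medium, and cells with a scramble hairpin in vehicle. From 3 days after transduction the medium carried troglitazone, which activates PPARG, at 10 uM and the active hormone form of vitamin D3 at 25 nM. In HCT116 and SW480 the groups were SETDB1-hairpin cells sorted as KRT-positive, SETDB1-hairpin cells sorted as KRT-negative, and unsorted cells; KRT20 is a keratin of differentiated intestinal epithelium, and for these 2 lines the labels write only KRT. The labels do not state the medium of the SETDB1-hairpin cells or the hairpin of the unsorted cells, so in each comparison of a sorted fraction with vehicle, medium-treated or unsorted cells the hairpin and the sort cannot be told apart. Nor is it stated whether a group's 3 replicates came from separate cultures, and every p-value below may therefore rest on technical spread alone. Levels are given as CPM, counts scaled to a common effective library size, and because the cells were measured in bulk, fewer cells expressing a gene and less RNA per cell cannot be told apart.

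Libraries held 5349737 to 10221854 counts. SETDB1 had 19.7, 23.1 and 26.0 CPM in KRT20-positive, 19.5, 23.7 and 20.9 CPM in KRT20-negative, 32.6, 32.1 and 37.9 CPM in medium-treated and 32.1, 31.2 and 28.8 CPM in vehicle Caco2. In the other lines it varied more within groups: 2.14, 19.9 and 31.2 CPM in KRT-positive, 0, 5.74 and 2.96 CPM in KRT-negative and 72.4, 70.7 and 16.8 CPM in unsorted HCT116, and 0, 0 and 12.0 CPM in KRT-positive, 36.1, 0.222 and 3.13 CPM in KRT-negative and 35.7, 35.8 and 15 CPM in unsorted SW480. The libraries labelled KRT-positive HCT116 and KRT-negative SW480 therefore overlapped unsorted cells for the targeted gene. KRT20 matched the sort in Caco2 (34.9, 37.8 and 25.9 CPM in the positive and 1.03, 1.75 and 1.11 CPM in the negative fraction) and SW480 (74.9, 53.4 and 44.3 CPM against 0, 0.665 and 0 CPM), but in HCT116 it was 0, 0 and 5.82 CPM in the KRT-positive and 0 CPM in every KRT-negative library. Summed epithelial markers lay between 3928 and 6113 CPM in Caco2, 1251 and 2627 CPM in HCT116, and 2661 and 4473 CPM in SW480. The third KRT20-negative Caco2 library stood apart, with fibroblast markers summing to 897 CPM against 148 to 184 CPM in the other 11 Caco2 libraries.

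The sequences that tie C15orf48 to NDUFA4 are shown first, because both genes are followed in every group below. RefSeq places mature miR-147b inside the C15orf48 locus on chromosome 15 (GRCh38.p14, chr15:45433098-45433118, plus strand). The seed, bases 2 to 8, is in capitals in the microRNA, and the bases complementary to it are in capitals in the only match found in the 3′ untranslated region of the NDUFA4 transcript in GENCODE, which starts 56 bases after the stop codon.
hsa-miR-147b-3p: gUGUGCGGaaaugcuucugcu
NDUFA4 site: agaagccacatCCGCACAattt
No seed match was found in the 3′ untranslated regions of C15orf48 or of NDUFA4L2, a paralogue known as a hypoxia-induced gene. A match is a description of these letters, and the microRNA itself was not measured.

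C15orf48 was highest in KRT20-positive SETDB1-hairpin Caco2. It had 23.8, 22.8 and 23.2 CPM in the KRT20-positive fraction, 6.49, 6.90 and 5.25 CPM in the KRT20-negative fraction, 5.18, 5.98 and 4.51 CPM in differentiation medium and 2.94, 3.09 and 1.69 CPM in vehicle. The positive fraction stood above all 9 other Caco2 libraries, the negative fraction and the medium-treated cells overlapped each other, and both lay above vehicle. The log2 fold change was 3.15 (SE 0.22, edgeR adjusted p = 3.49e-11) for KRT20-positive cells over vehicle, 1.90 (SE 0.19, edgeR adjusted p = 3.38e-07) over KRT20-negative cells, and 2.16 (SE 0.19, edgeR adjusted p = 6.46e-09) over medium-treated cells. KRT20-negative cells exceeded vehicle by 1.24 (SE 0.24, edgeR adjusted p = 2.02e-04) and medium-treated cells exceeded vehicle by 0.99 (SE 0.24, edgeR adjusted p = 0.00503). KRT20-negative and medium-treated cells were not told apart (log2 0.25, edgeR adjusted p = 0.366).

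In HCT116 and SW480, C15orf48 was at 0 counts in 15 of 18 libraries, where 3 counts would be 0.293 to 0.561 CPM. The other 3 libraries were single replicates of their groups: KRT-negative HCT116 replicate 2 held 70 counts (7.58 CPM), unsorted HCT116 replicate 1 held 56 counts (9.09 CPM) and unsorted SW480 replicate 3 held 55 counts (5.98 CPM). No KRT-positive library of either line held a count, and the gene was not tested there. The floor covers counting error only. Replicates of a single group ran from 0 to 70 counts, so a library at 0 does not show that the gene was absent.

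NDUFA4 itself, which C15orf48 can replace, was higher in all 3 Caco2 groups than in vehicle and did not separate the KRT20 fractions. It had 198, 204 and 200.4 CPM in KRT20-positive cells, 197, 193 and 212 CPM in KRT20-negative cells, 205, 185 and 206 CPM in medium and 171, 159.7 and 162 CPM in vehicle, where every vehicle library was below every other library. Over vehicle the log2 change was 0.29 in KRT20-positive cells (edgeR adjusted p = 0.00318), 0.29 in KRT20-negative cells (edgeR adjusted p = 0.00312) and 0.28 in medium (edgeR adjusted p = 0.00919, and 0.0528 without medium replicate 3), 3 comparisons that share the vehicle libraries. KRT20-positive and KRT20-negative cells differed by -0.00 (edgeR adjusted p = 0.992). For every 100 NDUFA4 counts there were 12.0, 11.2 and 11.6 C15orf48 counts in KRT20-positive cells, 3.30, 3.57 and 2.48 in KRT20-negative cells, 2.53, 3.24 and 2.19 in medium and 1.72, 1.93 and 1.04 in vehicle. These ratios compare counts of 3′ tags, 1 expected per transcript, so transcript length does not enter. NDUFA4 thus remained the more abundant of the pair in every Caco2 library.

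**Figure D1:**
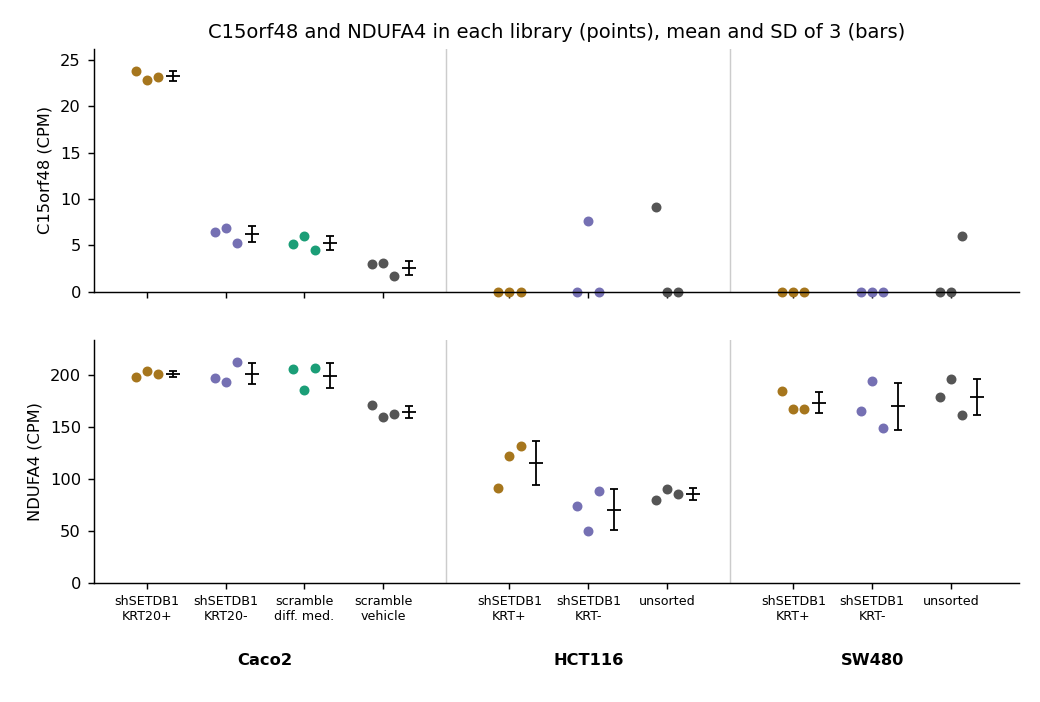
C15orf48 (top) and NDUFA4 (bottom) in CPM for every library of the 10 groups (points), with the mean and SD of 3 where no library was at 0 (bars). KRT20-positive Caco2 stands above all other groups for C15orf48 at 22.8 to 23.8 CPM. Among the Caco2 groups alone, NDUFA4 is close in both KRT20 fractions and in medium and lowest in vehicle.

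NDUFA4L2 was low in Caco2. It had 3.01, 3.05 and 3.40 CPM in KRT20-positive cells, 1.59, 2.92 and 3.13 CPM in KRT20-negative cells, 5.06, 6.29 and 2.96 CPM in medium and 4.91, 4.97 and 3.68 CPM in vehicle. It fell in KRT20-negative cells relative to vehicle (log2 -0.82, edgeR adjusted p = 0.0448). This call was lost without KRT20-negative replicate 1 or 2 or vehicle replicate 1 or 2 (log2 -0.92 to -0.58, edgeR adjusted p = 0.0555 to 0.185). It was also lost in DESeq2 (adjusted p = 0.0550) and in an edgeR fit of these 2 groups alone (adjusted p = 0.0596). NDUFA4L2 had 0 counts in all HCT116 and SW480 libraries. The other isoforms were near the floor. COX6A2, a heart and muscle isoform, had 0 counts everywhere, and COX4I2, the lung-enriched isoform of COX4I1, had at most 1 count in a group. COX6B2, the testis isoform of COX6B1, lay between 0.235 and 1.05 CPM in Caco2 and reached 6.51 CPM in single libraries of the other lines. COX7B2 reached 8.27 CPM in 1 unsorted SW480 library, and COX8C reached 4.02 CPM in 1 KRT-negative HCT116 and 4.79 CPM in 1 unsorted SW480 library; both are known from testis. COX7A1, another heart and muscle isoform, was at 0, 0 and 3.84 CPM in KRT20-negative Caco2, the last being the library with the high fibroblast markers, and at no more than 0.265 CPM in any other Caco2 library. It was also at 6.24 CPM (60 counts) in KRT-positive HCT116 replicate 3, and at 0 in the other HCT116 libraries. The part of fibroblast RNA in the COX7A1 values was not tested.

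In differentiation medium, subunit genes of every complex rose in scramble-hairpin Caco2. Summed over the 74 subunits, the level was 20821 ± 475 CPM in medium and 17535 ± 371 CPM in vehicle (SD, n = 3 each), a ratio of 1.19, or 1.15 when scaled by library totals. By complex the ratio of means was 1.16 for complex I, 1.35 for complex II, 1.20 for complex III, 1.21 for complex IV and 1.19 for complex V. Of 86 members tested, 36 were called higher and 2 lower at 5% FDR by edgeR, against 10.4% and 10.5% of all 13968 genes tested. Among the 74 subunits 34 rose and 1 fell: 16 of 36 in complex I, 2 of 4 in complex II, 4 of 8 in complex III, 7 of 11 with 1 lower in complex IV, and 5 of 15 in complex V. The median subunit log2 change was 0.24, against -0.00 over all genes. Subunit genes are well expressed, and among all 7414 genes of at least 20 CPM 1008 were called higher and 1109 lower. Without any 1 library 24 to 30 members were called higher, and without vehicle replicate 1 only 1 was lower.

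In complex I, NDUFA8, an accessory subunit on the intermembrane-space side, had the largest rise, with 84.0, 95.6 and 82.9 CPM in medium against 49.8, 47.0 and 54.1 CPM in vehicle (log2 0.80, SE 0.11, edgeR adjusted p = 5.87e-06). NDUFA10, another accessory subunit, had 216, 211 and 223 CPM in medium and 161, 148 and 147 CPM in vehicle (log2 0.51, edgeR adjusted p = 5.89e-05). NDUFV1, the core subunit that binds NADH, rose by a log2 of 0.48 (edgeR adjusted p = 9.58e-05). In all of these the medium and vehicle libraries did not overlap. No complex I subunit fell by this test, although with replicate number as a block NDUFA5 and NDUFC1, both accessory subunits, passed as lower at log2 -0.19 and -0.23 (edgeR adjusted p = 0.0215 and 0.0376), which took the members called lower to 4.

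In complex II, which is also an enzyme of the citric acid cycle, SDHA, the flavoprotein, and SDHC, a membrane anchor, were called higher. SDHC had 201, 209 and 225 CPM in medium against 132, 145 and 142 CPM in vehicle (log2 0.60, edgeR adjusted p = 0.00595), and SDHA had 135, 141 and 150.3 CPM against 117, 98.5 and 122 CPM (log2 0.34, edgeR adjusted p = 0.0117, and 0.0687 without medium replicate 3 or 0.0847 without vehicle replicate 2). The iron-sulfur subunit SDHB and the other anchor SDHD gave 0.28 and 0.27 without passing (edgeR adjusted p = 0.153 and 0.228). SDHB passed in an edgeR fit of medium and vehicle alone (log2 0.28, adjusted p = 0.0378) and without vehicle replicate 2 (log2 0.42, edgeR adjusted p = 0.0440). In complex III the core protein UQCRC2 had 323, 319 and 331 CPM in medium and 214, 213 and 215 CPM in vehicle (log2 0.60, edgeR adjusted p = 7.65e-07), and the Rieske iron-sulfur protein UQCRFS1 rose by 0.34 (edgeR adjusted p = 0.00638).

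In complex IV, COX7A2 had 269, 314 and 274 CPM in medium and 174, 153 and 183 CPM in vehicle (log2 0.75, edgeR adjusted p = 7.47e-07), and COX4I1, the largest nuclear-encoded subunit, had 648, 637 and 661 CPM against 453, 441 and 479 CPM (log2 0.50, edgeR adjusted p = 7.07e-06). COX7C, a small subunit of the same complex, was the 1 subunit that fell, with 314, 311 and 323 CPM in medium and 421, 385 and 450.3 CPM in vehicle (log2 -0.41, edgeR adjusted p = 3.36e-04). The other member that fell was ATP5S, an ATP synthase coupling factor counted apart from the subunits (log2 -0.62, edgeR adjusted p = 0.00632). In complex V, ATP5L, the g subunit of the membrane part and the subunit with the highest mean in vehicle, had 3279, 3226 and 3536 CPM in medium and 2617, 2622 and 2719 CPM in vehicle (log2 0.34, edgeR adjusted p = 0.00119).

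The 3 genes ATP5G1, ATP5G2 and ATP5G3 encode the same mature c subunit of the rotor ring. ATP5G3 had 1501, 1488 and 1534 CPM in medium against 1041, 1079 and 994 CPM in vehicle (log2 0.54, edgeR adjusted p = 8.46e-07). ATP5G1 had 442, 472 and 442 CPM in medium against 377, 413 and 379.9 CPM in vehicle (log2 0.21, edgeR adjusted p = 0.0280). ATP5G2 had 158, 177 and 170.3 CPM in medium and 173, 178 and 170.0 CPM in vehicle, overlapping, and was not called.

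**Figure D2:**
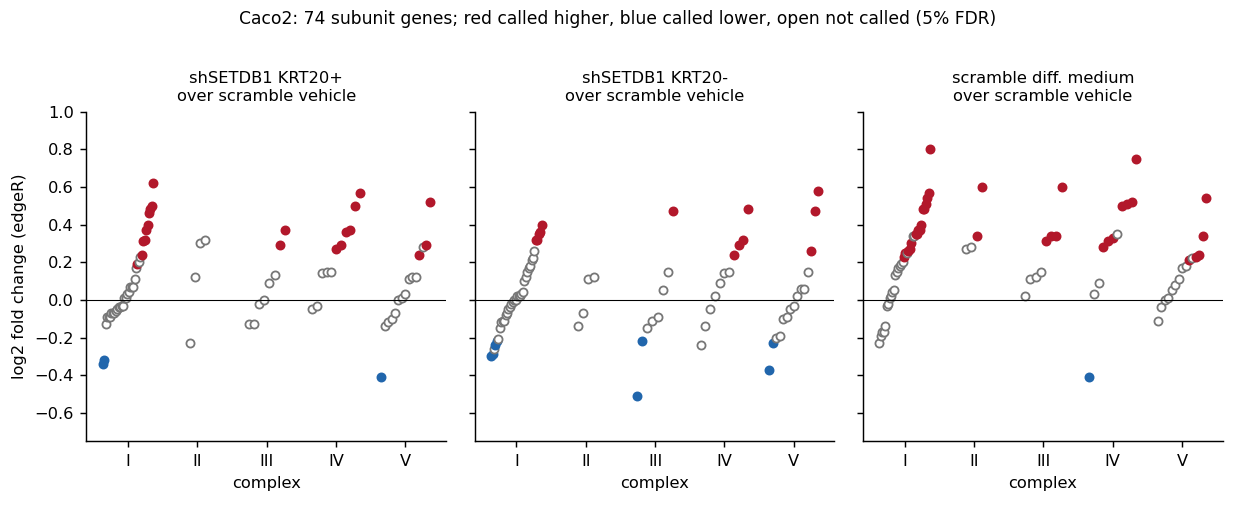
Log2 fold change over scramble vehicle for each of the 74 subunit genes, by complex, in KRT20-positive, KRT20-negative and medium-treated Caco2 (filled red called higher, filled blue called lower, open not called at 5% FDR). The 3 panels share the vehicle libraries; in medium 34 subunits are red and 1 is blue, while the KRT20-negative panel holds 13 red and 8 blue points.

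In the SETDB1-hairpin fractions the subunits that passed went in both directions. The summed level was 18583 ± 606 CPM in KRT20-positive and 17841 ± 435 CPM in KRT20-negative cells, against 17535 ± 371 CPM in vehicle (SD, n = 3 each). In KRT20-positive cells 24 of 86 members were called higher and 5 lower than in vehicle, against 19.3% and 18.4% of all genes, and in KRT20-negative cells 15 were higher and 10 lower, against 18.6% and 17.6%. Among genes of at least 20 CPM the shares were 19.1% higher and 26.6% lower in KRT20-positive and 18.8% higher and 25.5% lower in KRT20-negative cells. Among the 74 subunits these counts were 21 higher and 3 lower in KRT20-positive cells (median log2 0.08) and 13 higher and 8 lower in KRT20-negative cells (median log2 0.02). Without KRT20-negative replicate 2 or vehicle replicate 3, the members lower in KRT20-negative cells were 6 in place of 10. Complex IV was the complex with the highest ratio of means over vehicle in KRT20-positive cells, 1.19, with 3166, 3021 and 3105 CPM against 2618, 2488 and 2734 CPM, and 6 of its 11 subunits rose. In KRT20-negative cells its ratio was 1.08, and 4 of 11 rose.

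COX5A, a matrix-side subunit of complex IV, rose in both fractions, with 199, 197 and 201 CPM in KRT20-positive and 188, 183 and 188 CPM in KRT20-negative cells against 127, 131 and 143 CPM in vehicle (log2 0.57 and 0.48, edgeR adjusted p = 2.28e-06 and 2.59e-05). COX7A2 rose in both as well, with 259, 231 and 230.1 CPM in KRT20-positive and 209, 206 and 185 CPM in KRT20-negative cells against 174, 153 and 183 CPM in vehicle (log2 0.50 and 0.24, edgeR adjusted p = 5.39e-05 and 0.0330). COX7C, which fell in medium, was higher here: 565, 516 and 527 CPM in KRT20-positive and 508, 492 and 565 CPM in KRT20-negative cells against 421, 385 and 450.3 CPM in vehicle (log2 0.36 and 0.32, edgeR adjusted p = 4.89e-04 and 0.00158). For these genes no library of either fraction overlapped vehicle.

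All 3 c-subunit genes rose in both fractions. ATP5G1 had 539, 576 and 568 CPM in KRT20-positive and 561, 584 and 606 CPM in KRT20-negative cells, against 377, 413 and 379.9 CPM in vehicle (log2 0.52 and 0.58, edgeR adjusted p = 1.33e-06 and 3.23e-07). ATP5G3 had 1267, 1284 and 1257 CPM in KRT20-positive and 1241, 1296 and 1194 CPM in KRT20-negative cells, against 1041, 1079 and 994 CPM in vehicle (log2 0.29 and 0.26, edgeR adjusted p = 6.16e-04 and 0.00183). ATP5G2 had 203, 207 and 207 CPM in KRT20-positive and 206, 246 and 269 CPM in KRT20-negative cells, against 173, 178 and 170.0 CPM in vehicle (log2 0.24 and 0.47, edgeR adjusted p = 0.0262 and 1.12e-04). No library of either fraction overlapped vehicle for these genes.

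Other members fell in the fractions. ATP5J2, the f subunit of the membrane part of complex V, had 82.3, 79.5 and 70.4 CPM in KRT20-positive and 79.5, 70.9 and 88.9 CPM in KRT20-negative cells against 95.3, 105 and 109 CPM in vehicle (log2 -0.41 and -0.37, edgeR adjusted p = 0.00123 and 0.00337); the read-through gene ATP5J2-PTCD1, which can share its reads, was also called lower in both. NDUFS6, a zinc-binding subunit of complex I, had 299, 288 and 314 CPM in KRT20-positive and 297, 276 and 353 CPM in KRT20-negative cells against 382, 377 and 385 CPM in vehicle (log2 -0.34 and -0.30, edgeR adjusted p = 0.00127 and 0.00380). NDUFV1 was among those that rose, by 0.48 in KRT20-positive and 0.32 in KRT20-negative cells (edgeR adjusted p = 3.33e-05 and 0.00237).

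Complex II had no member called in either fraction in edgeR's fit of all 4 Caco2 groups. In KRT20-positive cells the log2 change over vehicle was 0.12 for SDHA, 0.30 for SDHB, 0.32 for SDHC and -0.23 for SDHD (edgeR adjusted p = 0.332, 0.0901, 0.0813 and 0.258). SDHC passed in DESeq2 (adjusted p = 0.0466), SDHB and SDHC passed in an edgeR fit of these 2 groups alone (adjusted p = 0.0153 and 4.07e-04), and SDHB passed without vehicle replicate 2 (log2 0.43, edgeR adjusted p = 0.0210). In KRT20-negative cells the complex II sum was 397, 362 and 284 CPM, the lowest being the library with the high fibroblast markers, against 334, 347 and 339 CPM in vehicle. Without that library SDHB and SDHC were called higher than vehicle at 0.29 each (edgeR adjusted p = 0.0243 and 0.00395), and 20 members were called higher in place of 15.

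Set directly against medium-treated cells, members were lower more often than higher in the KRT20-negative fraction: 37 were lower and 6 higher, against 18.4% and 19.6% of all genes. In the KRT20-positive fraction 23 were lower and 8 higher, against 16.6% and 18.0% of all genes. Among genes of at least 20 CPM the shares were 24.3% lower and 17.8% higher in KRT20-positive and 26.3% lower and 20.2% higher in KRT20-negative cells. ATP5L differed by -0.43 from medium in both fractions (edgeR adjusted p = 3.49e-05 in KRT20-positive and 3.20e-05 in KRT20-negative cells). COX7C stood highest among the subunits above medium, at 0.76 in KRT20-positive and 0.72 in KRT20-negative cells (edgeR adjusted p = 2.51e-08 and 5.09e-08). ATP5G1 and ATP5G2 were higher than in medium in both fractions and ATP5G3 lower (log2 0.31, 0.29 and -0.25, the call of ATP5G2 lost without medium replicate 1 at an edgeR adjusted p of 0.0664, in KRT20-positive and 0.37, 0.51 and -0.28 in KRT20-negative cells).

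Between the 2 fractions of the same hairpin cells few members differed. KRT20-positive cells had 3 of 86 members called higher and 0 lower than KRT20-negative cells, against 2.30% and 1.78% of all genes by edgeR. At an unadjusted p under 0.05 there were 17 higher and 3 lower. The share of all genes at that threshold is not given here, so these counts are not read as a shift of the members. The 3 were C15orf48, described above, UQCRQ and NDUFA8. UQCRQ, a small subunit of complex III that binds near ubiquinone, had 441, 435 and 474 CPM in KRT20-positive and 349, 332 and 356 CPM in KRT20-negative cells (log2 0.38, SE 0.07, edgeR adjusted p = 0.00143). It was lowest in the KRT20-negative fraction of all Caco2 groups, with 480.0, 507 and 520.2 CPM in medium and 489, 469.8 and 523 CPM in vehicle. NDUFA8 had 76.2, 83.2 and 72.9 CPM in KRT20-positive and 55.2, 68.1 and 51.2 CPM in KRT20-negative cells (log2 0.41, SE 0.10, edgeR adjusted p = 0.0215), without overlap. Its call was lost without KRT20-positive replicate 1 or 2 (edgeR adjusted p = 0.0690 and 0.118) or KRT20-negative replicate 1 (0.0681). It was also lost without KRT20-negative replicate 3, the library of high fibroblast markers (log2 0.33, edgeR adjusted p = 0.0536). An edgeR fit of the 2 fractions alone lost it too (log2 0.41, adjusted p = 0.0852). With replicate number as a block, which the same-numbered libraries' shared deviations allow for this comparison, 7 members were called higher, the 4 added being ATP5I, ATP5SL, COX4I1 and COX7A2 at log2 0.18 to 0.33. The share of all genes called with the block is not given here.

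**Figure D3:**
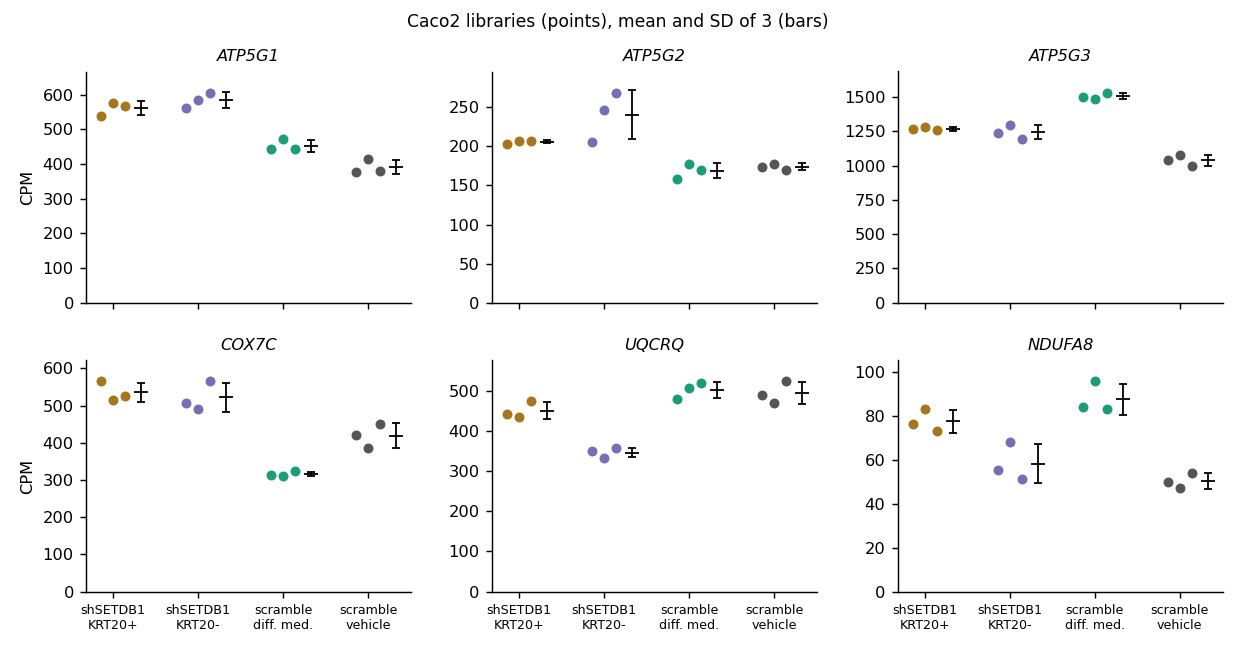
CPM of the 3 c-subunit genes ATP5G1, ATP5G2 and ATP5G3, and of COX7C, UQCRQ and NDUFA8, in each of the 12 Caco2 libraries (points), with the mean and SD of 3 (bars). ATP5G1, ATP5G2 and COX7C are highest in the SETDB1-hairpin fractions, ATP5G3 and NDUFA8 are highest by their means in medium, and UQCRQ is lowest in KRT20-negative cells.

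The promoters of the 3 members called between the KRT20 fractions are shown, from 250 bases before to 50 bases after the transcription start in RefSeq (GRCh38.p14). The genes were picked by that call, so their shared direction there only restates the choice. Shared regulation was not tested. Matches to 3 motifs known from promoters of respiratory genes are in capitals: GCGCA and GCGC with 1 base between them for NRF1, CCGGAAG for ETS factors and ATGGCGGC for YY1, each sought on both strands. C15orf48 lies at chr15:45430360-45430659 on the plus strand, NDUFA8 at chr9:122159730-122160029 on the minus strand and UQCRQ at chr5:132866392-132866691 on the plus strand.
C15orf48: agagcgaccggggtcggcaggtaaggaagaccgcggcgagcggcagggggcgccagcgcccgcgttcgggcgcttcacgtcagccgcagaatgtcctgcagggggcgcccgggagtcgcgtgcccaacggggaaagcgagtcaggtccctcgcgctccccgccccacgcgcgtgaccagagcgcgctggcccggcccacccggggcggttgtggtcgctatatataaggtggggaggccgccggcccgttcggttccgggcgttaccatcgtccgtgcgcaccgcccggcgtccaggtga
NDUFA8: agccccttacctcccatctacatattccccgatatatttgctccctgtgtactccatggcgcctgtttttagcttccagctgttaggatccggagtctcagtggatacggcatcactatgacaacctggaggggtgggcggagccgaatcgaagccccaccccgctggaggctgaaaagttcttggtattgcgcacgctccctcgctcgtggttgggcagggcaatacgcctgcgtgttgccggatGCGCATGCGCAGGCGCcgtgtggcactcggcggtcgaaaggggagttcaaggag
UQCRQ: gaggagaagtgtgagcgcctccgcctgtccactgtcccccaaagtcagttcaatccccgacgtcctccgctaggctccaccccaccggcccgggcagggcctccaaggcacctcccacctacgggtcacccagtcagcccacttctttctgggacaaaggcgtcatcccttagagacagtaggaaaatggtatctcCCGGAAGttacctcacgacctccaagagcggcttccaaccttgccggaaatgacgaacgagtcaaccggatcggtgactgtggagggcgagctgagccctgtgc
C15orf48 held none of the 3 motifs, NDUFA8 held 2 overlapping NRF1 matches across the start site, and UQCRQ held 1 ETS match 54 bases before it. Of the subunit genes 62 of 74 matched a RefSeq promoter by symbol. The NRF1 letters were in 15 of these (24.2%), against 6.28% of all 27305 promoters and 13.7% of the 6425 promoters of genes of at least 20 CPM. The ETS letters were in 30.6%, against 10.7% and 21.7%, and the YY1 letters in 19.4%, against 3.21% and 7.83%. A match is not a bound site, and no match says only that these letters are not in this window.

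In HCT116 every member that edgeR called against unsorted cells was lower in the SETDB1-hairpin fractions: 12 of 74 subunits in KRT-positive and 4 of 74 in KRT-negative cells, most of them in complex V. The summed level over the 74 subunits was 12039.7, 12499.7 and 12339 CPM in KRT-positive cells and 13246, 14613 and 13909 CPM in KRT-negative cells, against 17540.4, 17894 and 20106 CPM in unsorted cells, with no overlap. The ratio of this sum to unsorted cells was 0.664 in KRT-positive cells (0.772 by library totals) and 0.752 in KRT-negative cells (0.771 by library totals). The order of the 2 fractions depended on the scaling: KRT-positive over KRT-negative was 0.883, but 1.00 by library totals. For complex V the sums were 3404, 3204 and 3530.2 CPM in KRT-positive cells, 4100.2, 4418 and 4274 CPM in KRT-negative cells and 5859.9, 5878 and 7079 CPM in unsorted cells. The ratio to unsorted cells was 0.539 in KRT-positive cells (0.627 by library totals) and 0.680 in KRT-negative cells. In KRT-positive cells 13 of 84 members tested were lower and 0 higher, against 5.02% and 4.26% of all genes by edgeR, and the median subunit log2 change was -0.52 against 0.07 over all genes. Of those 13, 8 were among the 15 complex V subunits. The count was 8, 6 and 7 without KRT-positive replicate 1, 2 or 3, and 9 to 11 without an unsorted library. In KRT-negative cells 5 members were lower and 0 higher, against 2.44% and 2.82% of all genes. Of genes of at least 20 CPM, 8.55% were lower and 6.93% higher in KRT-positive and 4.16% lower and 4.64% higher in KRT-negative cells. Without any 1 library the KRT-negative count was 1 to 3. SETDB1 was higher in 2 of the libraries labelled KRT-positive than in 1 unsorted library. Some other markers also differed between these groups. Summed fibroblast markers, of which 5 to 9 of 14 were above 3 counts in a library, were 228, 177 and 261 CPM in KRT-positive and 160.1, 210.3 and 156 CPM in KRT-negative cells against 105, 132 and 105 CPM in unsorted cells. The epithelial cadherin CDH1 was at 364, 483 and 603 CPM in KRT-positive and 398, 619 and 584 CPM in KRT-negative cells against 71.3, 42.2 and 72.2 CPM in unsorted cells. Neither the fibroblast sum nor CDH1 overlapped between the fractions and unsorted cells. Other epithelial markers were mixed. EPCAM was higher than in unsorted cells in both fractions, without overlap. The keratin KRT18 was below all unsorted libraries in KRT-positive cells, and the keratin KRT8 in KRT-negative cells. Each overlapped unsorted cells in the other fraction, and CDX2 overlapped them in both. The part of these markers in the subunit differences was not tested.

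The c-subunit gene ATP5G1 had 158, 162 and 176 CPM in KRT-positive and 366, 390.1 and 585 CPM in unsorted HCT116 (log2 -1.43, SE 0.25, edgeR adjusted p = 0.00173). ATP5G3 had 534, 517 and 658 CPM against 1264, 1106 and 1193 CPM (log2 -1.06, edgeR adjusted p = 0.00227), and ATP5G2 fell by 0.95 on the log2 scale, so that all 3 c-subunit genes were lower. The catalytic head fell too: ATP5A1, its alpha subunit, had 250.1, 203 and 254 CPM in KRT-positive and 564, 424 and 453 CPM in unsorted cells (log2 -1.03, edgeR adjusted p = 0.00674), and ATP5B, its catalytic beta subunit, gave log2 -1.21 (edgeR adjusted p = 0.00382). Outside complex V, NDUFS6 had 157, 136 and 139.6 CPM against 311, 272 and 389.5 CPM (log2 -1.17, edgeR adjusted p = 0.00492) and UQCRQ had 428, 273 and 407 CPM against 647, 743 and 780.3 CPM (log2 -0.97, edgeR adjusted p = 0.00947, and 0.0634 without KRT-positive replicate 2). The 4 complex V subunits lower in KRT-negative than in unsorted cells were ATP5A1, ATP5B, ATP5G1 and ATP5G3, at log2 -0.97, -0.85, -0.95 and -0.73. These calls were the less firm: that of ATP5A1 was lost without KRT-negative replicate 2 or 3 or unsorted replicate 1 (edgeR adjusted p = 0.0736 to 0.0812), and that of ATP5G1 without KRT-negative replicate 1 or 2 or unsorted replicate 2 or 3 (0.0584 to 0.124).

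HCT116 libraries also differed in how counts followed the GC content of genes. KRT-negative replicates 2 and 3 and unsorted replicate 3 had slopes of 0.17 to 0.28 log2 per 10 GC points, and the other 6 had slopes of -0.18 to -0.04. Among the 6 alone, 13 members were lower in KRT-positive than in unsorted cells, 10 of them shared with the count above. Only 1 KRT-negative library was left there; against the unsorted cells ATP5G1 and ATP5A1 had log2 changes of -1.10 and -0.80 (edgeR adjusted p = 0.0695 and 0.209). With GC class as a term over all 9 libraries, 13 members were lower in KRT-negative than in unsorted cells. The share of all genes called in these alternative fits is not given here. Subunit genes had a median GC content of 49.1%, against 49.4% for 7755 genes of at least 20 CPM.

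KRT-positive and KRT-negative HCT116 cells had 0 members called in either direction by edgeR, against 0.166% higher and 0.384% lower of all genes. DESeq2 also called 0. At an unadjusted p under 0.05 there were 2 higher and 5 lower, with no share of all genes given for that threshold. NDUFA4 had 90.8, 122 and 131 CPM in KRT-positive, 73.9, 49.3 and 87.8 CPM in KRT-negative and 79.1, 90.5 and 85.4 CPM in unsorted cells. Every KRT-positive library was above every KRT-negative one, at a log2 difference of 0.70 that did not pass (edgeR adjusted p = 0.402).

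SW480 gave few calls. The 74 subunits summed to 14193, 14092 and 15130.0 CPM in KRT-positive cells and 16199, 14717 and 16795 CPM in KRT-negative cells. Unsorted cells had 17330.0, 16373 and 17351 CPM. The KRT-positive libraries were thus below all unsorted ones, and the KRT-negative ones overlapped them. The complex V sum was below unsorted cells without overlap in both fractions, at ratios of 0.767 in KRT-positive and 0.848 in KRT-negative cells. Complexes I and II were below without overlap in KRT-positive cells only (0.849 and 0.712). Complexes III and IV overlapped unsorted cells in both fractions. In KRT-positive cells 3 of 86 members were lower than in unsorted cells and 0 higher, against 1.57% and 1.90% of all genes, and in KRT-negative cells 1 was lower and 0 higher, against 0.762% and 1.36%. The library labelled KRT-negative replicate 1 had as much SETDB1 as unsorted cells, and without it 1 member was lower too. The gene lower in both was ATP5G2, with 168, 162 and 112 CPM in KRT-positive and 137, 147 and 154 CPM in KRT-negative cells against 532, 402 and 426 CPM in unsorted cells (log2 -1.62 and -1.63, SE 0.23 each, edgeR adjusted p = 0.00164 and 0.00210). ATP5G1 had 214, 171 and 243 CPM in KRT-positive and 227, 175 and 286 CPM in KRT-negative cells against 359, 254 and 353 CPM in unsorted cells and was not called.

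The other 2 lower in KRT-positive cells were NDUFB3, an accessory subunit of complex I with 75.4, 33.0 and 59.4 CPM against 158, 161 and 162 CPM (log2 -1.52, edgeR adjusted p = 0.0205), and UQCRC2 with 56.4, 60.2 and 59.7 CPM against 173, 120.1 and 113 CPM (log2 -1.20, edgeR adjusted p = 0.0459). Replicate 2 of each SW480 group had slopes of -0.29 to -0.16 log2 per 10 GC points, against 0.07 to 0.18 in the others. Without the replicate 2 libraries ATP5G2 kept its calls (log2 -1.78 in KRT-positive and -1.72 in KRT-negative cells, edgeR adjusted p = 0.0158 and 0.0229), and NDUFB3 and UQCRC2, at log2 -1.25 and -1.30 with fewer libraries, no longer passed (edgeR adjusted p = 0.0941 and 0.0968). UQCRC2 also lost its call without any single library of either group (edgeR adjusted p = 0.0697 to 0.217), and NDUFB3 without any single unsorted library (0.0527 to 0.0733). The 2 SW480 fractions had 0 members called by edgeR, against 0.226% higher and 0.219% lower of all genes. DESeq2 called 1 lower. At an unadjusted p under 0.05 there were 9 members, with no share of all genes given for that threshold.

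**Figure D4:**
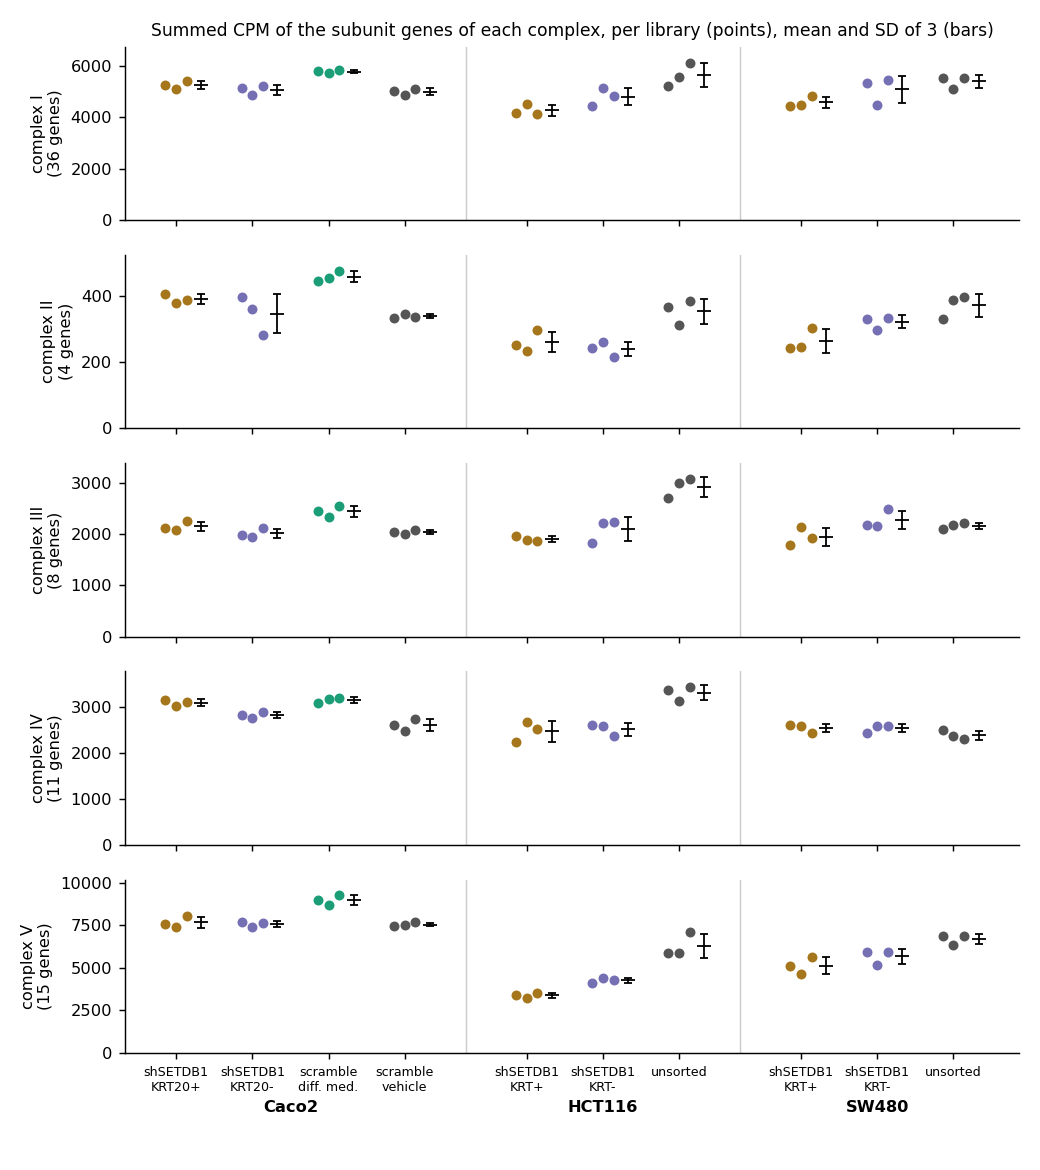
Summed CPM of the subunit genes of complexes I to V in each library of the 10 groups (points), with the mean and SD of 3 (bars); each panel starts at 0. Within Caco2 the medium group is highest in each panel by its mean, and in HCT116 complex V lies at 3204 to 3530.2 CPM in KRT-positive cells and 5859.9 to 7079 CPM in unsorted cells.

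**Figure D5:**
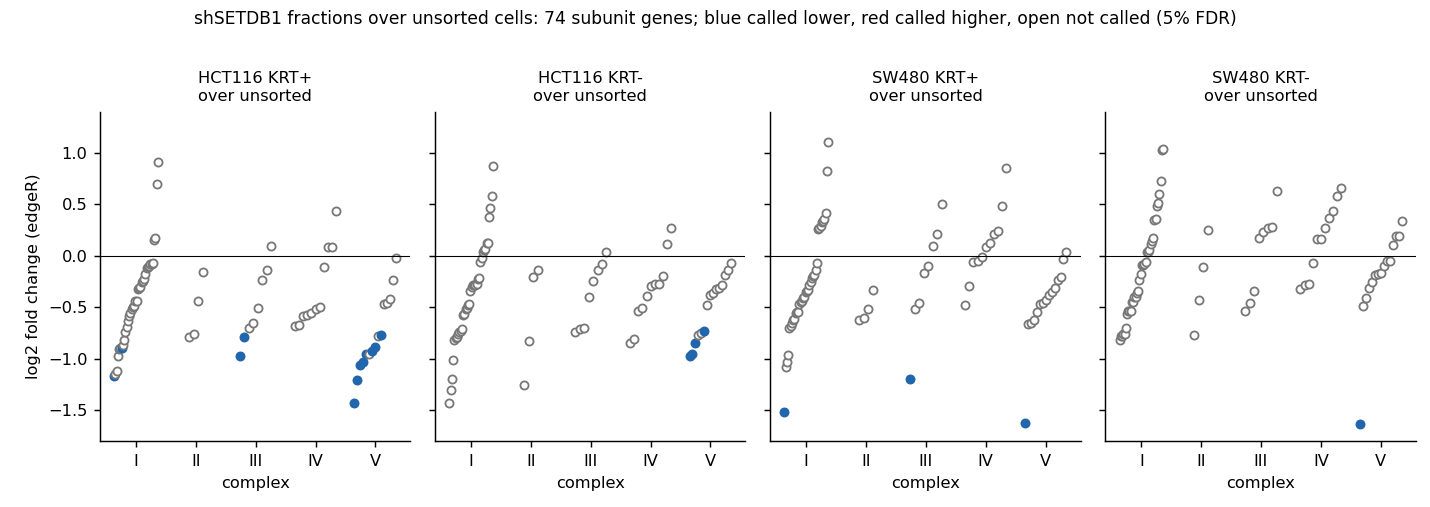
Log2 fold change over unsorted cells for each of the 74 subunit genes, by complex, in KRT-positive and KRT-negative HCT116 and SW480 (filled blue called lower, open not called at 5% FDR). KRT-positive HCT116 holds 12 blue points, 8 of them in complex V, and no point is called higher in any panel.

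Genes around the complexes were counted from lists of assembly factors, citric acid cycle enzymes, electron carriers, regulators of mitochondrial genes, inhibitor and supercomplex proteins, and mitochondrial ribosomal proteins. In medium-treated Caco2, 7 of 50 assembly factors were higher and 2 lower than in vehicle (median log2 0.05), as were 6 and 0 of 19 citric acid cycle genes (0.13), 4 and 0 of 9 inhibitor or supercomplex genes (0.20), 2 and 2 of 19 regulators (0.09), 2 and 0 of 13 carriers (0.11) and 12 and 1 of 80 genes matching the ribosomal protein pattern (0.06). Over all genes 10.4% were higher and 10.5% lower, and the counts for assembly factors, carriers, regulators and ribosomal protein genes called higher are near that share. In KRT20-positive cells 12 of 80 ribosomal protein genes were lower than in vehicle and 4 higher (median -0.06), against 18.4% and 19.3% of all genes, and in KRT20-negative cells 15 were lower and 2 higher (median -0.09), against 17.6% and 18.6%. Assembly factors were 4 higher and 9 lower in KRT20-positive and 5 higher and 9 lower in KRT20-negative cells, the 18.0% lower in each again near the share of all genes. In KRT-positive HCT116, 13 of 80 ribosomal protein genes were lower and 0 higher than in unsorted cells (median -0.54), against 5.02% and 4.26% of all genes.

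The genes named from these lists were picked by their calls, so the size of their changes is not set against the subunits. HIGD1A, a small protein that binds complex IV, averaged 148 CPM in KRT20-positive cells, 114 CPM in KRT20-negative cells, 162 CPM in medium and 94.6 CPM in vehicle (log2 over vehicle 0.65, 0.27 and 0.77, edgeR adjusted p = 7.91e-07, 0.00985 and 1.77e-07), and it also separated KRT20-positive from KRT20-negative cells (log2 0.37, edgeR adjusted p = 0.00652). IDH2, the mitochondrial NADP-dependent isocitrate dehydrogenase, averaged 35.4 CPM in KRT20-positive and 31.0 CPM in KRT20-negative cells against 10.8 CPM in vehicle (log2 1.73 and 1.54, edgeR adjusted p = 3.96e-09 and 3.50e-08). TFAM, which packages and transcribes mitochondrial DNA, averaged 335 CPM in KRT20-positive and 347 CPM in KRT20-negative cells against 467 CPM in vehicle (log2 -0.48 and -0.42, edgeR adjusted p = 7.80e-05 and 3.27e-04). PPARGC1B, a coactivator of mitochondrial genes, averaged 44.8 CPM in medium against 26.2 CPM in vehicle (log2 0.77, edgeR adjusted p = 3.87e-05).

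Some members share reads or letters with a near copy, and their values are uncertain to that extent: UQCRH with UQCRHL, UQCRB with UQCRBP1, ATP5E with ATP5EP2, ATP5L with ATP5L2, and the read-through genes ATP5J2-PTCD1 and NDUFC2-KCTD14 with ATP5J2 and NDUFC2.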

How the data were processed

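Deposited values were raw read counts per gene symbol, one table per library; the authors used Bowtie2, edgeR and the hg19 build, per the submitters' processing notes, in versions not given in the sources used here. The protocol counts 3′ tags, so a gene's level does not scale with its length. Each table had 25737 lines; 1561 lines of 286 repeated symbols were summed, leaving 24462. Counts were fitted per cell line in edgeR 4.0.16 (filterByExpr, TMM, robust quasi-likelihood test, all groups of a line in one fit) under R 4.3.3, and p-values were adjusted by Benjamini-Hochberg over all genes tested, called at 5% FDR. The filter kept 13968 genes of the Caco2 libraries, 13279 of HCT116 and 13252 of SW480, with 86, 84 and 86 of the 94 members. The fits were tested on simulated data. CPM use TMM-scaled library sizes; SE is the log2 change over the square root of F. Differences between lines came from joint fits with an interaction term.

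Members and lists were chosen with earlier results of these data known. Genes named were C15orf48, NDUFA4, NDUFA4L2, the tissue isoforms, SDHA to SDHD, up to 2 called members per complex and direction with the smallest adjusted p in a comparison, and up to 3 per direction of each other list. Other members named, such as ATP5S, UQCRFS1, ATP5B and the c-subunit genes where not called, and the promoters shown, were chosen after their values were seen. In Caco2, same-numbered libraries deviated together (r over 0.1 in every pair, 0.11 to 0.28 over 7841 genes of at least 20 CPM) in 4 of 6 comparisons, and the numbers may mark pairs there. The main fits had no replicate term, so p-values and counts are unpaired unless a replicate block is named. Alternatives were RLE factors, library totals, no filter, DESeq2 1.42.0, fits of 2 groups, a replicate block, a term for GC class and leaving out each replicate; fits within a GC class were added after seeing the data. Depth was 5349737 to 10221854 counts; a gene at 0 counts could hold up to 3, or 0.293 to 0.561 CPM, for counting error only.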

Additional observations from a re-analysis of the deposited data

Results flagged for a closer look

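A joint fit of the difference between sorted fractions across lines called 1 of 87 members when Caco2 was set against HCT116. It called 1 of 88 when Caco2 was set against SW480. Each is a smaller share than that of all genes called. For NDUFA10 the signed log2 change of KRT-positive over KRT-negative cells lay 1.02 higher in Caco2 than in HCT116 (edgeR adjusted p = 0.0393, 364 of 15332 genes called). The larger step was the fall in HCT116. With library totals in place of TMM, or with no filter on low counts, no member was called in this comparison. NDUFA10 had 178, 179 and 183 CPM in KRT20-positive and 192, 166 and 155 CPM in KRT20-negative Caco2, which overlap, and 42.1, 49.1 and 59.2 CPM in KRT-positive and 96.7, 102 and 89.2 CPM in KRT-negative HCT116, which do not. UQCRQ differed by 0.75 more in Caco2 than in SW480 (edgeR adjusted p = 0.0184, 449 of 15339 genes called). It was higher in KRT20-positive than in KRT20-negative Caco2 in every library, whereas it had 571, 769 and 815 CPM in KRT-positive and 800.2, 987 and 942 CPM in KRT-negative SW480, with 1 KRT-positive library above the lowest KRT-negative one. HCT116 and SW480 were not told apart for any of 87 members by edgeR. Of these, 5 had an unadjusted p under 0.05, with no share of all genes given for that threshold. C15orf48 gave an adjusted p of 0.114 against HCT116, where most libraries hold 0 counts. The GC slopes were -0.12 to -0.04 log2 per 10 GC points in KRT-positive and -0.16, 0.23 and 0.17 in KRT-negative HCT116, and their part in the NDUFA10 difference was not tested; in SW480 they were 0.07, -0.29 and 0.09 in KRT-positive and 0.12, -0.22 and 0.08 in KRT-negative cells.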

How the results depend on the processing

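Across alternatives, 350 of the member counts and C15orf48 values stayed within the limits set for them and 52 moved; of the values of named members, 1068 kept direction and call, 73 lost a call, 9 gained one and 10 changed sign. The sign changes were all of values near 0: NDUFA4 between the KRT20 fractions at 0.00 (RLE factors), 0.02 (library totals), 0.00 (DESeq2) and -0.03 to 0.04 leaving out 1 library, SDHC and SDHD in KRT20-negative cells over vehicle at -0.06 to 0.29 and -0.28 to 0.04, and NDUFA4L2 in medium at -0.17 to 0.32 leaving out 1 library, -0.06 without the third vehicle library. For most counts below the cause was not tested. The share of all genes called was not set beside the counts of the alternative fits.

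In Caco2, members lower in medium were 4 with the replicate block and 1 to 3 leaving out 1 library; members higher in KRT20-positive than in KRT20-negative cells were 7 with the block, and lower ones 1 with no filter and 0 to 1 leaving out 1; members lower in KRT20-negative cells than in vehicle were 6 in a fit of 2 groups and 6 to 10 leaving out 1. The block changed no other Caco2 count by over 1.5 times.

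In HCT116, members lower in KRT-negative than in unsorted cells were 3 (library totals), 14 (DESeq2), 1 (2 groups), 13 (GC class term, with or without the replicate block), 0 (6 libraries of low GC slope, with 1 KRT-negative library left, which says little) and 1 to 3 leaving out 1 library. Members lower in KRT-positive than in unsorted cells were 8 by library totals and 6 to 11 leaving out 1, and higher ones 1 by library totals, no filter and DESeq2, and 0 to 1 leaving out 1.

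In SW480, KRT-negative against unsorted cells gave 1 higher by DESeq2, block and GC term, and 3, 2 and 3 lower. KRT-positive against unsorted cells gave 1 higher by library totals, DESeq2, block and GC term (0 to 1 leaving out 1), and 5 lower by DESeq2, 1 in 2 groups, 7 with the GC term, 1 without the replicate 2 libraries and 1 to 3 leaving out 1. KRT-positive against KRT-negative cells gave 1 lower by DESeq2. The difference between Caco2 and HCT116 called 0 members by library totals, 0 with no filter and 2 with the block, and that between Caco2 and SW480 called 9 with the block. In HCT116 and SW480 no comparison reached r over 0.1 in every pair, so the replicate numbers were not taken as pairs. The SW480 replicate 2 libraries did deviate together (r = 0.26, 0.23 and 0.30), and they shared the low GC slopes. The main fit had no term for this. Isoforms near 3 counts were limited by depth.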
